A study of Mus musculus with 6 samples.

Results

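Aminoacyl-tRNA synthetases are the enzymes that join each amino acid to its transfer RNA, and 36 of their genes were followed in Ppp6r3 cKO and wild-type mouse testis. The genes were taken by symbol from a fixed list, without use of their values, out of 54532 genes in the deposited table. They comprise 20 genes for enzymes that work in the cytosol and 16 for enzymes encoded in the nuclear genome and imported into mitochondria. All 36 were found and all 36 had enough fragments to be tested. Mars1 stands in the annotation under its older symbol Mars.

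The samples are testes taken on postnatal day 9, sequenced for poly(A) RNA. Of the 6 libraries, 3 came from mice in which Ppp6r3 was conditionally knocked out (Ppp6r3 cKO) and 3 from wild-type mice. The PPP6R3 protein is one of the regulatory subunits of the phosphatase PP6. Neither a Cre line nor the deleted part of Ppp6r3 is given in the labels, and nor is the strain or any pooling of animals. Since it is not stated whether libraries of a group are separate mice, the p-values here speak of the spread among 3 libraries, which may be technical in origin. By its title the study concerns translation as spermatogonia differentiate, and synthetases supply translation with its charged tRNAs.

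In the cytosol, one enzyme usually serves one amino acid, with exceptions: Eprs encodes a fused enzyme for glutamate and proline, and Farsa and Farsb encode the alpha and beta subunits of the phenylalanine enzyme. Several cytosolic enzymes sit together in a multisynthetase complex held by scaffold proteins. Mitochondria charge their own tRNAs with a separate set of enzymes, while Gars and Kars each encode both the cytosolic and the mitochondrial form of their enzyme. In many mammalian cells, cytosolic synthetase genes are among the targets of ATF4, the transcription factor of the integrated stress response.

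The libraries held 15970908 to 16606868 fragments each, as read back from the steps between the deposited values, with 25841 to 26642 genes above 0. A synthetase gene was covered by 112 to 4292 fragments per library, with Wars2 the lowest. Ppp6r3 itself had 15.8, 15.3 and 14.9 FPKM, a level corrected for exon length and library size, in Ppp6r3 cKO testis, against 20.8, 21.3 and 21.0 FPKM in wild-type testis. Its log2 fold change was -0.45 (SE 0.042, limma adjusted p = 0.000698). It includes all cells of the testis and all exons. Testis markers were present: Ddx4 of germ cells, Sox9 of Sertoli cells and Cyp11a1 of Leydig cells each exceeded 19 FPKM in every library, and the epididymis genes Crisp1, Lcn8 and Defb20 summed to 0.181 to 1.14 FPKM over all 6 libraries.

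Testis composition markers differed between the groups. Of all 17672 genes tested with limma, 7.65% rose and 7.83% fell at an adjusted p under 0.05. All 7 meiotic prophase markers fell, and their summed level was 108 to 115 FPKM in Ppp6r3 cKO testis, against 246.6 to 249.8 FPKM in wild-type testis. Germ cell markers as a whole, with 4 of 7 lower and 1 higher, summed to 336 to 371 FPKM in Ppp6r3 cKO and 478 to 494 FPKM in wild type, the list sharing Stra8 and Sycp3 with the meiotic one. All 5 endothelial markers rose (50.1 to 53.9 FPKM summed in Ppp6r3 cKO, 30.1 to 34.1 FPKM in wild type). All 4 stroma markers (338 to 355 FPKM summed in Ppp6r3 cKO, 277 to 283 FPKM in wild type) and 3 of 4 macrophage markers (96.0 to 102 FPKM in Ppp6r3 cKO, 61.4 to 71.1 FPKM in wild type) also rose. All 3 erythroid markers fell (178 to 204 FPKM in Ppp6r3 cKO, 289 to 327 FPKM in wild type). Of the Sertoli cell markers 2 of 5 rose and 1 fell, of the Leydig cell markers 1 of 5 rose, and of the myoid cell markers 1 of 3 fell. Their part in the synthetase results was not tested, and in bulk tissue fewer cells of a type and less RNA per cell cannot be told apart.

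The summed mRNA level of the synthetases overlapped between the groups. In each library the 20 cytosolic genes summed to 604, 607 and 596 FPKM in Ppp6r3 cKO testis, against 613, 610 and 601 FPKM in wild-type testis, and these ranges overlapped. The 16 mitochondrial genes summed to 117, 125 and 118 FPKM in Ppp6r3 cKO, against 121, 124 and 126 FPKM in wild type, also with overlap. On the log2(FPKM + 0.1) scale used for all fold changes here, the median change was -0.015 for the cytosolic genes and 0.0068 for the mitochondrial genes, beside 0.0027 for all 17672 genes tested. The median size of the change, whichever its direction, was 0.051 over the 36 genes and 0.14 over all genes tested, a set that also holds genes with few fragments.

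With limma and Benjamini-Hochberg adjustment over all 17672 genes (threshold 0.05), 1 cytosolic gene rose (Iars), 2 fell (Farsb and Lars) and 17 did not pass. Among the mitochondrial genes 3 fell (Tars2, Rars2 and Hars2), 13 did not pass and none rose. At an unadjusted limma p under 0.05, 0 mitochondrial genes rose, and the share of all genes at that threshold is not given here. Voom on the recovered fragments also called 0 mitochondrial rises, where it called 4070 of all 17672 genes changed in either direction. The 6 calls are 16.7% of the 36 genes, beside 15.5% of all genes tested, a share near that background. By direction, 1 of the 36 rose beside 7.65% of all genes tested, and 5 of the 36 fell beside 7.83%. The groups did not overlap for 12 of the 36 genes, 5 with Ppp6r3 cKO above and 7 with Ppp6r3 cKO below, against 36.9% of all genes tested. All but Tars2, or 97.2% of the family, had changes under 0.25 in size, against 72.1% of all genes tested. The latter set also holds genes with few fragments, so the 2 shares are not a like comparison.

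**Figure D1:**
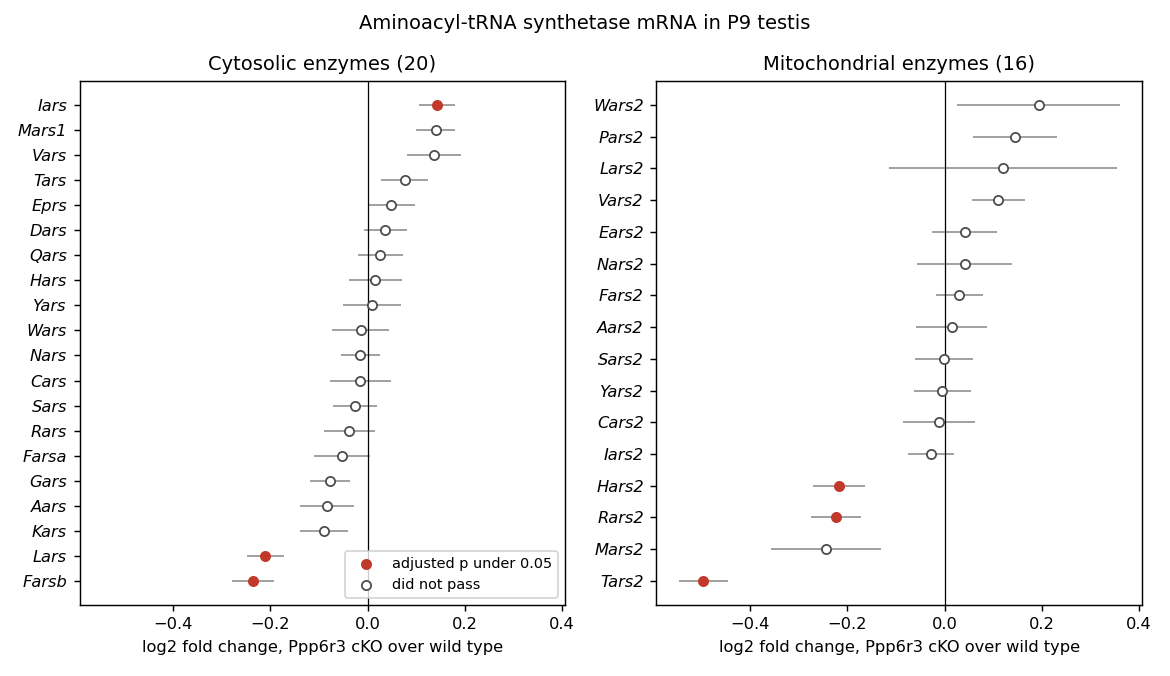
Log2 fold change of each synthetase gene, Ppp6r3 cKO over wild type, with cytosolic enzymes on the left and mitochondrial enzymes on the right; points are limma estimates, lines are 1 SE and filled points passed the test. Tars2 lies lowest at -0.50, Farsb, Lars, Rars2 and Hars2 lie between -0.24 and -0.21, and Iars passed at 0.14.

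Tars2, which charges mitochondrial threonine tRNA, had the largest change of the family (chromosome 3, 95739976 to 95760206, minus strand; mm10). It had 6.73, 6.59 and 6.73 FPKM in Ppp6r3 cKO testis, against 9.09, 9.75 and 9.57 FPKM in wild-type testis. The 3 Ppp6r3 cKO libraries lay close together and below every wild-type library. The log2 fold change was -0.50 (SE 0.051, limma adjusted p = 0.00115), a level 0.709 of wild type. The call held in all 18 alternatives, from -0.54 to -0.45, and no annotated gene overlaps Tars2. Its cytosolic counterpart Tars did not pass: the level was 17.3, 18.7 and 17.1 FPKM in Ppp6r3 cKO and 17.0, 16.5 and 16.8 FPKM in wild type, a narrow gap without overlap (log2 fold change 0.08, SE 0.048, limma adjusted p = 0.322). The ratio of Tars2 to Tars was 0.389, 0.352 and 0.395 in Ppp6r3 cKO, against 0.534, 0.591 and 0.571 in wild type. These ratios did not overlap, and the 2-sided exact permutation test gave p = 0.1, the smallest that 3 against 3 libraries allow (0.257 after Benjamini-Hochberg adjustment over 18 such ratios). The cytosolic threonine paralog Tarsl2 had a log2 fold change of -0.15 (limma adjusted p = 0.321).

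Rars2 and Hars2, the mitochondrial enzymes for arginine and histidine, fell by less. Rars2 (chromosome 4, 34614957 to 34660167, plus strand) had 10.6, 11.3 and 11.3 FPKM in Ppp6r3 cKO testis, against 12.8, 12.5 and 13.5 FPKM in wild-type testis. Its log2 fold change was -0.22 (SE 0.052, limma adjusted p = 0.0249), but -0.14 and not passing (adjusted p = 0.0518) after correction for GC content and length, and it was also lost without Ppp6r3 cKO replicate 1 (adjusted p = 0.0507) and without any 1 wild-type replicate (adjusted p = 0.0527 to 0.0911). Rars2 starts next to Orc3, an origin recognition gene on the opposite strand, whose log2 fold change was -0.18 (limma adjusted p = 0.0527). Hars2 (chromosome 18, 36783008 to 36792562, plus strand) had 8.24, 8.88 and 8.73 FPKM in Ppp6r3 cKO, against 9.61, 10.1 and 10.4 FPKM in wild type. All Ppp6r3 cKO libraries were lower, with a log2 fold change of -0.22 (SE 0.054, limma adjusted p = 0.0319). Without any 1 of the 6 libraries the Hars2 call was lost, with adjusted p of 0.0506 to 0.111 and fold changes of -0.25 to -0.19.

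Hars2 lies head to head with Hars, the cytosolic histidine gene, on the opposite strand (36766528 to 36783205), and the gene spans share 198 bases. Hars had 40.3, 43.9 and 39.9 FPKM in Ppp6r3 cKO testis and 42.5, 41.7 and 38.4 FPKM in wild-type testis, with overlapping groups (log2 fold change 0.02, limma adjusted p = 0.874). The counting was not stated to use strand, so reads in the shared bases cannot be told apart. The ratio of Hars2 to Hars was 0.204, 0.202 and 0.219 in Ppp6r3 cKO and 0.226, 0.242 and 0.270 in wild type, again without overlap (exact permutation p = 0.1). Of the mitochondrial genes that did not pass, Mars2, the methionine enzyme, had the smallest p. Its levels were 1.76, 1.86 and 1.75 FPKM in Ppp6r3 cKO and 1.90, 2.33 and 2.20 FPKM in wild type. Its groups did not overlap, yet it did not pass (log2 fold change -0.24, SE 0.11, limma adjusted p = 0.182), while voom called it lower at -0.26. The germ cell gene Boll, which lies next to Mars2, had a log2 fold change of -0.38 (limma adjusted p = 0.00548). Dnd1, which lies next to Hars, was at 0.09 (limma adjusted p = 0.462), with overlapping groups.

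Among cytosolic genes, Farsb, the beta subunit of the phenylalanine enzyme, had the largest change (chromosome 1, 78417975 to 78488897, minus strand). It had 34.9, 33.9 and 32.1 FPKM in Ppp6r3 cKO testis, against 40.6, 39.4 and 38.9 FPKM in wild-type testis, with no overlap. The log2 fold change was -0.24 (SE 0.044, limma adjusted p = 0.0112), and it became -0.16 (adjusted p = 0.0559, not passing) after correction for GC content and length. Farsb overlaps the opposite-strand gene Sgpp2, which averaged 1.504 FPKM. Farsa, the alpha subunit, had 22.7, 20.2 and 20.6 FPKM in Ppp6r3 cKO and 21.5, 23.2 and 21.3 FPKM in wild type (log2 fold change -0.05, limma adjusted p = 0.581). The enzyme holds both subunits in equal number. The Farsb to Farsa mRNA ratio, per length, was 1.54, 1.68 and 1.56 in Ppp6r3 cKO and 1.89, 1.70 and 1.83 in wild type. Those ratios were lower in every Ppp6r3 cKO library, with gaps as narrow as 1.68 against 1.70 (exact permutation p = 0.1).

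Lars, the cytosolic leucine enzyme, which also acts as a leucine sensor upstream of mTORC1 in human cells, fell as well (chromosome 18, 42202298 to 42262194, minus strand). Its levels were 25.9, 25.8 and 26.8 FPKM in Ppp6r3 cKO testis, against 30.5, 29.8 and 30.5 FPKM in wild-type testis. The groups were well apart, and the log2 fold change was -0.21 (SE 0.038, limma adjusted p = 0.0102). Without each library in turn it stayed called, from -0.23 to -0.20.

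Iars, the cytosolic isoleucine enzyme, was the gene that rose (chromosome 13, 49682100 to 49734267, plus strand). It had 25.8, 26.1 and 25.5 FPKM in Ppp6r3 cKO testis, against 23.1, 23.5 and 23.6 FPKM in wild-type testis. All Ppp6r3 cKO libraries lay above all wild-type libraries, at a log2 fold change of 0.14 (SE 0.037, limma adjusted p = 0.036). The size hardly moved between alternatives (0.13 to 0.15), but the call was lost without Ppp6r3 cKO replicate 2 or 3 or any 1 wild-type replicate (adjusted p = 0.0696 to 0.114) and with the replicate number as a block (adjusted p = 0.0673). Of the cytosolic genes that did not pass, Mars1, the methionine enzyme, had the smallest p. Its levels were 61.2, 59.3 and 57.9 FPKM in Ppp6r3 cKO and 54.7, 52.2 and 55.0 FPKM in wild type. Mars1 just missed the threshold (log2 fold change 0.14, SE 0.040, limma adjusted p = 0.0501) and was called higher in 5 of 18 alternatives. Its gene span shares 68 bases with Ddit3, the stress response factor CHOP, on the opposite strand, and Ddit3 had a log2 fold change of 0.10 (limma adjusted p = 0.602).

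**Figure D2:**
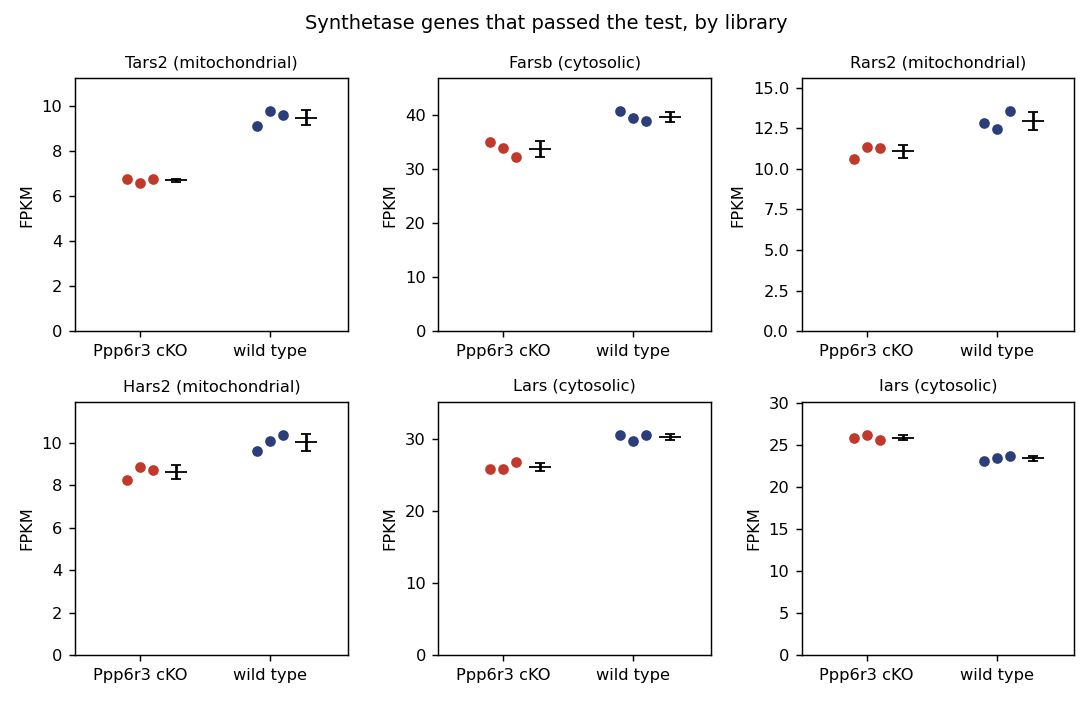
FPKM in each library (dots) of the 6 synthetase genes that passed the test, Ppp6r3 cKO on the left and wild type on the right of each panel; the dash and bars are the mean and SD of 3 libraries and every axis starts at 0. In Tars2 the Ppp6r3 cKO dots sit at 6.59 to 6.73 FPKM and the wild-type dots at 9.09 to 9.75 FPKM, and Iars is the panel with Ppp6r3 cKO above.

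The other cytosolic genes stayed between -0.09 (Kars) and 0.14 (Vars) on the log2 scale, with standard errors of 0.040 to 0.063. The multisynthetase complex holds 8 of the cytosolic enzymes (Eprs, Iars, Lars, Mars1, Qars, Rars, Kars and Dars). Of these 8, 1 rose and 1 fell, or 25% beside 15.5% of all genes tested, and the median of the 8 was 0.03. Outside the complex 1 of 12 fell (8.33%), and the median of those 12 was -0.02. Vars, the valine enzyme, had 38.7, 35.5 and 35.3 FPKM in Ppp6r3 cKO and 31.1, 34.3 and 34.2 FPKM in wild type, without overlap, but did not pass (log2 fold change 0.14, limma adjusted p = 0.133) except with voom, and was at 0.04 after the correction for GC content and length. Gars and Kars, which serve both compartments, were at -0.08 and -0.09 (limma adjusted p = 0.234 and 0.2502).

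The mitochondrial genes were the lower expressed set. Per length, the median gene of the mitochondrial set had 7.91 FPKM in Ppp6r3 cKO and 8.38 FPKM in wild type, against 27.5 FPKM in Ppp6r3 cKO and 29.2 FPKM in wild type for the cytosolic set. In all 17 pairings of a mitochondrial enzyme with a cytosolic enzyme for the same amino acid, the cytosolic mRNA had the higher FPKM in every library of both groups. The gap was widest for methionine, where Mars1 exceeded Mars2 by 33.2-fold in Ppp6r3 cKO and 25.2-fold in wild type. It was narrowest for tyrosine, where Yars exceeded Yars2 by 1.32-fold in Ppp6r3 cKO and 1.31-fold in wild type. These gaps depend on the annotated exon lengths, such as 11294 bases for Mars2 and 3423 for Mars1. In fragments per library, not divided by length, Mars1 (2964 to 3433) still exceeded Mars2 (319 to 437). The fragment ranges overlapped for Iars2 (2004 to 2207) and Iars (1987 to 2231), and for Lars2 (1485 to 2546) and Lars (1588 to 1956). Mean levels over all libraries ran from 6.45 FPKM (Cars) to 63.8 FPKM (Gars) among cytosolic genes and from 1.61 FPKM (Wars2) to 14.5 FPKM (Iars2) among mitochondrial genes. Across the 18 ratios compared, the Farsb to Farsa ratio included, 7 did not overlap between the groups. Each had the smallest exact permutation p the design allows (adjusted p = 0.257). Taken singly, 36.9% of all genes tested did not overlap between the groups. Some ratios share a gene (Eprs, Farsa or Farsb), so the ratios are not independent. Lower in Ppp6r3 cKO were Tars2, Hars2, Rars2, Iars2 and Mars2 over their cytosolic partners and Farsb over Farsa, and higher was Fars2 over Farsb.

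**Figure D3:**
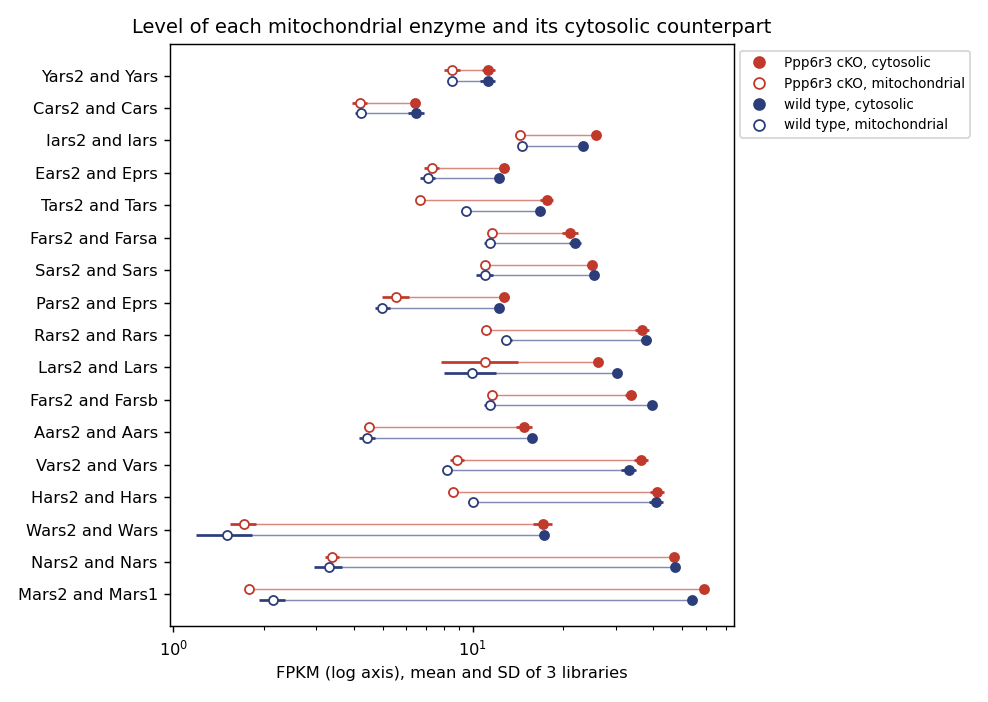
FPKM on a log axis (mean and SD of 3 libraries) of each mitochondrial synthetase gene (open) and the cytosolic gene for the same amino acid (filled), with Ppp6r3 cKO in red above wild type in blue. Every filled point lies right of its open partner, and the open Tars2 point is at 6.68 FPKM in Ppp6r3 cKO and 9.47 FPKM in wild type.

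Lars2, the mitochondrial leucine enzyme, was the least repeatable gene of the family in Ppp6r3 cKO testis. It had 8.17, 14.4 and 10.4 FPKM in Ppp6r3 cKO testis and 8.17, 9.67 and 12.1 FPKM in wild-type testis, a coefficient of variation of 28.5% in Ppp6r3 cKO and 19.7% in wild type. The largest values of any other synthetase gene were 10.4% in Ppp6r3 cKO (Pars2) and 21.1% in wild type (Wars2), the latter above that of Lars2. The groups overlapped fully, and the log2 fold change of 0.12 (SE 0.23, limma adjusted p = 0.775) was -0.09 without Ppp6r3 cKO replicate 2 and -0.01 without wild-type replicate 1. Lars2 was covered by 1485 to 2546 fragments per library. A pair of short RNA genes, chosen after their values were seen, ran high and low in the same libraries. Gm23935, a gene model annotated as a miRNA, had 4277, 7593 and 4626 FPKM in Ppp6r3 cKO and 3819, 6266 and 7452 FPKM in wild type. Rn7sk, the 7SK RNA, which carries no poly(A) tail, had 0.737, 3.97 and 2.81 FPKM in Ppp6r3 cKO and 0.910, 2.73 and 3.03 FPKM in wild type, from 4 to 21 fragments. For all 3 genes Ppp6r3 cKO replicate 2 and wild-type replicate 3 were the highest libraries and replicate 1 of each group the lowest. The part of carried-over non-polyadenylated RNA in the Lars2 values was not tested.

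**Figure D4:**
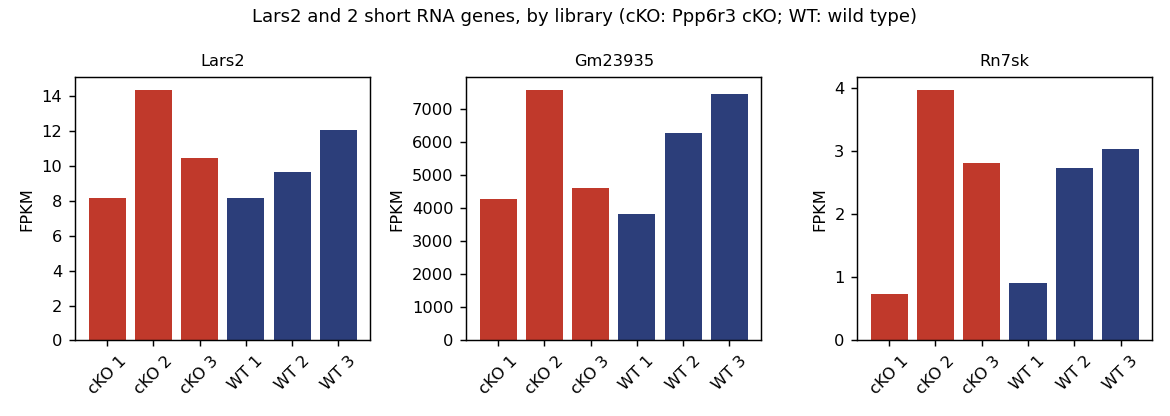
FPKM of Lars2, Gm23935 and Rn7sk in each library, with Ppp6r3 cKO (cKO, red) left of wild type (WT, blue) and axes from 0. The highest bars of all 3 genes are Ppp6r3 cKO replicate 2 and wild-type replicate 3, and the lowest are replicate 1 of both groups.

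Since ATF4 controls many cytosolic synthetase genes, their promoters were searched for its composite site with C/EBP factors, TGATGNAA, on both strands (reverse complement TTNCATCA). RefSeq promoter sequences on GRCm38.p6, from 250 bases before to 50 after the start of the gene, were matched for 13 cytosolic and 14 mitochondrial genes. Cars, Hars, Lars, Nars, Rars, Vars, Wars, Hars2 and Pars2 are named only. The letters were found in 5 of the 13 cytosolic promoters and 0 of the 14 mitochondrial ones, against 4.51% of the 27025 genes in the promoter table. One site in each of these 5 promoters is shown because it marks a cytosolic promoter that holds these letters, a feature that the choice of genes did not use; not every site found is printed. Each is given 5′ to 3′ on the strand of the gene with 11 flanking bases, the match in capitals:
Aars, chr8:111033840-111033869, plus strand, 9 bases after the start site: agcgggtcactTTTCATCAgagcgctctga
Gars, chr6:55037960-55037989, plus strand, 30 bases before: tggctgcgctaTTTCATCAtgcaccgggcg
Iars, chr13:49682126-49682155, plus strand, 7 bases after: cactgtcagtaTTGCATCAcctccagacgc
Tars, chr15:11399655-11399684, minus strand, 15 bases before: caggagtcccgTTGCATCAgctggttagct
Yars, chr4:129189895-129189924, plus strand, 3 bases after: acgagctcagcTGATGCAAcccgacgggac

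Distances are those of the first base of the match. Of these 5 genes Iars rose, while the log2 fold changes of Aars (-0.08), Gars (-0.08), Tars (0.08) and Yars (0.01) did not pass. A match describes these letters in this window and shows no binding.

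Atf4 mRNA itself rose a little. It had 49.0, 50.2 and 50.5 FPKM in Ppp6r3 cKO testis, against 44.6, 46.8 and 43.2 FPKM in wild-type testis, without overlap (log2 fold change 0.15, SE 0.042, limma adjusted p = 0.0425). The Atf4 call was lost without Ppp6r3 cKO replicate 2 or 3 or any 1 wild-type replicate (adjusted p = 0.0573 to 0.142) and with the replicate number as a block (adjusted p = 0.0624). ATF4 is controlled mainly at translation, which mRNA levels do not measure. Of 10 stress response and MYC genes Atf4 alone passed, or 10% of the list beside 15.5% of all genes tested. The others were Ddit3, Asns, Chac1, Trib3, Psat1, Phgdh, Sesn2, Myc and Mycn, and the median of the 10 was 0.11. Of the 10, 8 had a log2 fold change above 0 and 2, Asns and Psat1, below 0. Asns, the asparagine synthetase and an ATF4 target, had a log2 fold change of -0.14 (limma adjusted p = 0.0969), and voom called it lower. Psat1 was at -0.10 (limma adjusted p = 0.0893). Mycn, a MYC family factor, was at 0.19 (limma adjusted p = 0.0598) and was called higher by voom, with quantile normalization and after both fits with the GC and length correction.

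The other genes of tRNA charging and processing mostly did not pass. Of 26 such genes 1 fell, or 3.85% beside 15.5% of all genes tested, and the rest did not pass. The median of the 26 was -0.05. At an unadjusted limma p under 0.05, 2 were higher and 6 lower, and the share of all genes at that threshold is not given here. Voom called 2 lower and 0 higher, where it called 4070 of all 17672 genes tested. Ankrd16, which in mouse helps alanyl-tRNA synthetase to remove wrongly charged serine, was the gene that fell. It had 8.09, 8.67 and 7.96 FPKM in Ppp6r3 cKO, against 9.29, 9.60 and 9.54 FPKM in wild type (log2 fold change -0.20, SE 0.053, limma adjusted p = 0.0383), and its call was lost without 5 of the 6 libraries, all but Ppp6r3 cKO replicate 2, and with the replicate number as a block (adjusted p = 0.06). Of the scaffold proteins of the multisynthetase complex, Aimp1, Aimp2 and Eef1e1, the smallest p was that of Aimp2 (log2 fold change -0.13, limma adjusted p = 0.263). Sepsecs, which completes selenocysteine on its tRNA, was at -0.24 (limma adjusted p = 0.0957) and was called lower by voom. Clp1, an RNA kinase that acts with the tRNA splicing endonuclease, was at 0.15 (adjusted p = 0.13), and the exporter Xpo5 was at -0.03 (adjusted p = 0.624).

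One library stood apart by base composition. With genes split into 10 bins by GC content, the median log2 deviation from the mean of the 6 libraries in Ppp6r3 cKO replicate 1 was -0.11 in the bin of lowest GC and 0.13 in the bin of highest GC. In wild-type replicate 3 it was 0.06 and -0.06 in the same bins. Farsb and Rars2 are the 2 calls that the correction for GC content and length moved most. Among the called synthetase genes they have the lowest GC content (46.0% and 44.8%). They also have the shortest exon length (2620 and 2771 bases). The parts of GC content and of length in these shifts were not tested. Without Ppp6r3 cKO replicate 1 the log2 fold change was -0.26 for Farsb, -0.19 for Rars2 and -0.50 for Tars2.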

How the data were processed

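Per the labels' protocols, RNA was extracted with TRIzol and poly(A) RNA went into a stranded KAPA library kit. Reads were aligned to mm10 with HISAT2 2.0.5, according to the design text. DESeq2 is listed, with no role, in the processing notes of the submitters. The counter, strand setting and annotation release are not given in the sources used here. The values deposited by the authors are FPKM, although the table's name speaks of raw counts. Times the GENCODE M21 exon length, the values were whole multiples of 1 step per library (tolerance 0.01) for 97.0% of 32589 genes above 0. For the rest, another length that gave whole numbers was searched for and used. Depth was read from the step and fragments from the multiples. The recovered fragments summed to 101.4% to 103.2% of that depth, so the 2 do not match exactly.

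Genes with at least 10 fragments in at least 3 libraries were tested on log2(FPKM + 0.1) with limma 3.58.1 in R 4.3.3 (trend, robust, 2-sided). A pseudocount makes fold changes of low genes too small. No library repeats another: chi-square over degrees of freedom was 2.23 to 4.35 between replicates. On simulated data with the same spread setting for every gene, the test recovered 56 of 67 genes changed 1.5-fold, with 13 false calls among 17672 genes. Changes under 1.5-fold, which include those of all the synthetase genes, were not simulated. Coordinates are GENCODE M21 on GRCm38 (mm10). Median-ratio scaling factors ran from 1.0006 to 1.0048, so the deposited scaling was kept. Alternatives are given in the closing section.

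The members, gene lists, tests and alternatives were chosen with earlier results of these data known. Values in every library are given for genes that passed and, in each class, up to 4 genes by the smallest p; Vars, Lars2, their partners and the neighbouring and short RNA genes were added after their values were seen. A few further values are not reported here. Python 3.11.15 with pandas 2.3.3 was used.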

Additional observations from a re-analysis of the deposited data

How the results depend on the processing

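No alternative turned the direction of any of the 6 called synthetase genes, and Tars2 passed in all 18; 17 of the 30 genes that did not pass changed sign in at least 1. The main counts were 1 cytosolic rise, 2 cytosolic falls, 3 mitochondrial falls and 2736 genes in all. Cytosolic rises numbered 3 with voom, 2 with quantile normalization, with no robust estimation and after the GC and length correction (where 1 cytosolic gene fell), and 0 with no filter, with the replicate block and at an adjusted p under 0.01. With no filter, 1 mitochondrial gene fell and 1508 genes changed. At an adjusted p under 0.01, which is stricter by construction, 0 cytosolic and 1 mitochondrial genes fell and 889 genes changed. Voom called 4070 genes. Leaving out 1 library gave 0 to 1 cytosolic rises, 2 cytosolic falls, 1 to 2 mitochondrial falls, 1235 to 2398 changed genes and a cytosolic median of -0.029 to 0.0086. The mitochondrial median, 0.0068 in the results, was -0.023 to 0.035 without 1 library and -0.017 after the GC and length correction. The sign of the cytosolic median turned without Ppp6r3 cKO replicate 1 or wild-type replicate 2, and that of the mitochondrial median without Ppp6r3 cKO replicate 2 or wild-type replicate 1 and with the correction. Without wild-type replicate 1, 2 or 3, 1620, 1235 and 1331 genes changed. Ppp6r3 stayed called, from -0.47 to -0.43 without 1 library. The causes were not tested. With the replicate block 2192 genes changed. Same-numbered libraries did not deviate together (correlations of -0.00678 to 0.0159), and not every library correlated best with its own number. The labels do not say whether the numbers pair the samples, and these correlations cannot decide it. Wars2, the gene with the fewest fragments, had the widest standard error after Lars2.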
